A study of Homo sapiens with 4 samples.

Results

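The mRNAs of the cytosolic large ribosomal subunit were followed from total RNA into RNA that co-purified with the deacylase SIRT7. The 48 members were chosen by gene symbol, RPL3 to RPL41 with the stalk genes RPLP0, RPLP1 and RPLP2, out of 23615 genes in the deposited table. All 48 had a full set of values, none was marked as failed, and all passed the filter on low counts. The cells were HEK293T, a human embryonic kidney line, and every library came from cells that stably carry Flag-SIRT7. The input group (2 libraries) is total cellular RNA extracted with TRI reagent. The RIP group (2 libraries) is RNA immunoprecipitated from lysates on anti-Flag M2 affinity gel, freed with proteinase K and extracted with phenol-chloroform. Input and RIP therefore differ in extraction as well as in the pull-down. A pull-down from untagged cells was not analysed here, and the labels do not say whether the line is 1 clone or whether the libraries of a group are separate cultures. The p-values measure the spread between these libraries, which may be technical. In bulk RNA, a change in the share of cells that hold a transcript and a change in transcript per cell cannot be told apart.

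The large subunit carries the peptidyl transferase centre, which joins amino acids, and the tunnel through which the new protein leaves. Its proteins are made in the cytoplasm, imported into the nucleolus and assembled there on ribosomal RNA. Their mRNAs are short, abundant and stable, and most start with a run of pyrimidines at the 5′ end, the terminal oligopyrimidine (TOP) tract, through which growth signals control their translation. SIRT7 is a nucleolar and nuclear enzyme known for its ties to ribosomal RNA transcription.

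The starts of the mRNAs were read first, because the pyrimidine run is the sequence feature that the members share and that the choice of members did not use. RefSeq's promoter table (GRCh38.p14) had entries for 41 of the 48 members, 32 with 1 annotated start and 9 with several. RPL5, RPL7, RPL8, RPL23, RPL23A, RPL30 and RPL37 had none. Each window holds the 10 bases before and the 20 bases from the annotated start, on the strand of the gene, and capitals mark its longest run of C or T. The first 4 windows belong to members with a large rise in RIP and the next 3 to members near the bottom of the order. The others belong to the paralog pairs, with both annotated starts of RPL26L1.
RPL35A (chr3:197950180-197950209, plus strand): gggcctcgTCCTTCTCTTaccgccatcttg
RPLP0 (chr12:120201092-120201121, minus strand): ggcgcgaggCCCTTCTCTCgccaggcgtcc
RPL37A (chr2:216498834-216498863, plus strand): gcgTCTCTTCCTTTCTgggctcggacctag
RPL18 (chr19:48619159-48619188, minus strand): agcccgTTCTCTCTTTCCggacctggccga
RPL14 (chr3:40457329-40457358, plus strand): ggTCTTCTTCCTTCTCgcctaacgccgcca
RPL19 (chr17:39200313-39200342, plus strand, 1 of 2 annotated starts): agCTCTTTCCTTTCgctgctgcggccgcag
RPL4 (chr15:66504836-66504865, minus strand): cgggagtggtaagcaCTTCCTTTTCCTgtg
RPL22 (chr1:6199576-6199605, minus strand): cgctcaCCTCCCTTTCTaactccgctgccg
RPL22L1 (chr3:170870176-170870205, minus strand): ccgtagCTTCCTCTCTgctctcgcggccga
RPL36A (chrX:101391001-101391030, plus strand): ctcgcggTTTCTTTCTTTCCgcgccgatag
RPL36AL (chr14:49620607-49620636, minus strand): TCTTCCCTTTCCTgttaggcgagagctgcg
RPL26L1 (chr5:172958719-172958748, plus strand, first annotated start): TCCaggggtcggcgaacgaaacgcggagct
RPL26L1 (chr5:172958870-172958899, plus strand, the other start): ggcggcggccacaaaCCCgcaggcacgccg
RPL26 (chr17:8383174-8383203, minus strand): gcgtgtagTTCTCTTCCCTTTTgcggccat

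A run of at least 8 bases that are each C or T lay in the window of 34 of the 41 members (82.9%), counting a gene with several starts once by its longest run. Among the tested genes in the promoter table the share was 17.4% (1814 of 10398). With genes of 1 annotated start only, 28 of 32 members (87.5%) and 12.4% of tested genes had such a run. On the opposite strand the shares were 9.76% of members and 12.5% of tested genes. The small subunit mRNAs had the run in 22 of 26 cases (84.6%). The paralog RPL26L1 had no such run at either annotated start, while RPL26 had 14 bases in a row. RPL35A, the most raised member, has a run of 10, and RPL4, the only one that fell, a run of 12. High and low members also lacked it: RPL36, 4.62-fold higher, had at most 7 in a row, and RPL6, 1.53-fold higher, at most 5. The annotated start can lie some bases from the true one, so a window without a run describes that window only.

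Per sample, 17310753 to 25998032 fragments fell on genes, the most in the RIP libraries. SIRT7, the tagged protein's own mRNA, rose 37.4-fold (adjusted p = 6.499e-16). Of 6 markers of HEK293T, VIM, KRT18, NEFM and KRT8 had 185 or more fragments in every library, while LHX1 had at most 58 and PAX2 at most 14. Of 8 markers of other cell types HBB, CD3E and INS had none in any library, and COL1A1 had the most, at most 173. Of the tested genes 77.7% were called at an adjusted p under 0.05, 38.0% higher and 39.7% lower in RIP, so a call alone says little about a gene. The size of the change and its place among all genes therefore stand beside the calls below.

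Large subunit mRNAs held 4.86% and 5.14% of all fragments in the input libraries and 10.3% in each RIP library, a ratio of means of 2.06. As a share of summed FPKM, the authors' value per transcript length, the ratio was 1.297. With 2 libraries on each side the exact permutation test (two-sided) cannot go below p = 0.333, which it gave. Of the 48 members 47 were higher in RIP and 1, RPL4, was lower, against 38.0% and 39.7% of all tested genes. CPM below is a gene's fragments relative to the TMM-scaled total of its library. The CPM values of the groups did not overlap for any of the 48, as for 89.2% of tested genes, and both RIP libraries lay above both input libraries for 47, as for 43.7%. The median log2 fold change was 1.71 (3.26-fold), against -0.03 for all tested genes. The 2 libraries of a group agreed well: the RIP libraries differed by under 0.2 on the log2 scale for all 48 members, and the input libraries for 46. At least 2-fold higher were 42 members and 17.6% of tested genes, at least 4-fold 13 members and 2.99%, and at least 6-fold 3 members (RPL35A, RPL13 and RPLP0) and 0.392%. By percentile of fold change among all tested genes RPL35A lay at 99.9, RPLP0 at 99.6, RPL23A at 61.6 and RPL4 at 42.9. Effective length is the authors' scaled fragments over FPKM, given here in units of the median tested gene, and longer genes had lower fold changes in the table as a whole. A second fit took that trend out with length offsets, and both its value and the effective length stand beside the ratios below. With offsets 34.7% of tested genes were higher and 35.5% lower (70.3% either way). The members did not move as a block: from RPL4 to RPL35A the ratio of RIP to input differed 8.48-fold.

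**Figure D1:**
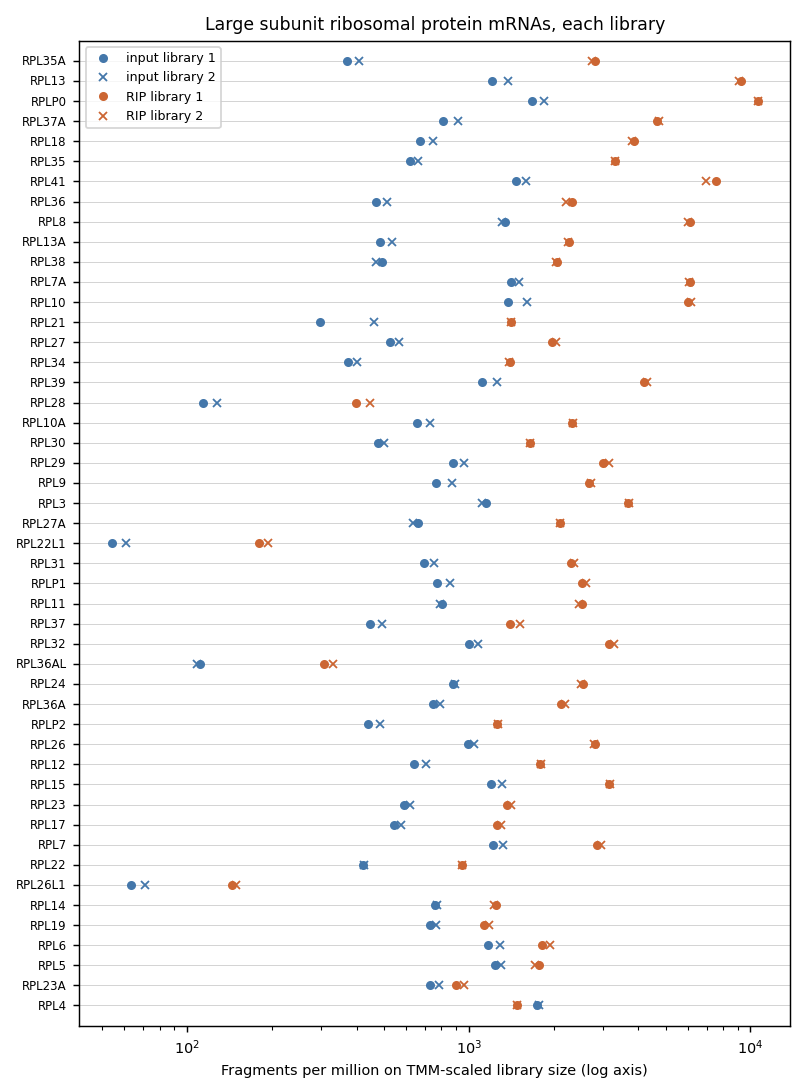
CPM (on TMM-scaled library sizes, log axis) of each of the 48 mRNAs in both input libraries (blue) and both RIP libraries (orange), ordered by fold change. The groups are apart for each of the 48, as for 89.2% of tested genes, and only RPL4, at the bottom, is lower in RIP.

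The stalk proteins form the flexible arm that recruits the factors of elongation. RPLP0, its scaffold, was at 1675 and 1848 CPM in input and at 10642 and 10631 CPM in RIP. This was a 6.04-fold rise (log2 fold change 2.59, SE 0.0744, adjusted p = 6.966e-13). RPLP1 went from 772 and 856 to 2524 and 2605 CPM, a 3.15-fold rise (adjusted p = 1.368e-11). RPLP2 went from 440.1 and 484 to 1259 and 1268 CPM, a 2.73-fold rise (adjusted p = 4.364e-11). RPL12, at the base of the stalk, rose 2.69-fold. Effective lengths were 0.375 for RPLP0, 0.115 for RPLP1, 0.109 for RPLP2 and 0.171 for RPL12. With offsets RPLP0 was at 1.61, while RPLP1, RPLP2 and RPL12 turned to -0.14, -0.38 and -0.12. Without offsets the dimer partners of the arm, RPLP1 and RPLP2, lay 0.05 and 0.26 below the members' median log2 value. The scaffold lay 0.89 above it. With offsets the partners were again below the members' median, then 0.23, and the scaffold above it.

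RPL5 and RPL11 bind the 5S ribosomal RNA together and, when free of ribosomes, inhibit the ubiquitin ligase MDM2. RPL5 had 1239 and 1305 CPM in input and 1779 and 1721 CPM in RIP, a 1.38-fold rise (log2 fold change 0.46, SE 0.0679, adjusted p = 1.404e-05). RPL11 had 804 and 789 CPM in input and 2514 and 2462 CPM in RIP, a 3.12-fold rise (log2 fold change 1.64, SE 0.0679, adjusted p = 6.906e-12). The groups did not overlap for either gene, as for 89.2% of tested genes. The partners differed from each other by more than their SEs. When each library was scaled by its total instead of by TMM, RPL5 was at -0.27 (adjusted p = 0.0009007), while RPL11 was at 0.91. With offsets RPL5 (effective length 0.309) was at -0.69 (adjusted p = 1.035e-09), and RPL11 (0.160) was at 0.05 and lost its call (adjusted p = 0.3939).

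Around the peptidyl transferase centre lie RPL3, RPL8 and RPL10, the last of which joins the subunit late, in the cytoplasm. RPL3 was at 1150.4 and 1111 CPM in input and at 3688 and 3713 CPM in RIP, a 3.27-fold rise (adjusted p = 4.973e-12). RPL8 was at 1341 and 1317 CPM in input and at 6108 and 5989 CPM in RIP, a 4.55-fold rise (adjusted p = 1.064e-12). RPL10 was at 1382 and 1607 CPM in input and at 6010.1 and 6140.5 CPM in RIP, a 4.07-fold rise (adjusted p = 4.515e-12). All 3 were at or above the members' median. With effective lengths of 0.407, 0.251 and 0.788 they stayed higher with offsets, at 0.80, 0.89 and 1.73.

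Proteins that line the exit tunnel or ring its mouth ran from -0.25 for RPL4 to 2.37 for RPL35 on the log2 scale. Of the 10 in this group 9 rose and 1 fell, against 38.0% and 39.7% of all tested genes, and the median log2 value was 1.32. With offsets 2 were higher and 6 lower, against 34.7% and 35.5% of all tested genes, and the median was -0.22. RPL4, whose long loop reaches into the tunnel wall, was at 1747 and 1782 CPM in input and at 1489 and 1486 CPM in RIP. It fell by 0.25 on the log2 scale (SE 0.066, adjusted p = 0.003127), and without the first RIP library (adjusted p = 0.1193) or the second (0.1235) the call was lost. RPL23A, a docking site at the tunnel mouth, was at 729.9 and 784 CPM in input and at 902 and 965 CPM in RIP, a 1.23-fold rise (adjusted p = 0.00108). This small rise was not called without the second RIP library (adjusted p = 0.0655) and turned to -0.43 with library totals. RPL19 rose 1.55-fold, from 726 and 763 to 1129 and 1178 CPM (adjusted p = 4.392e-07). At the other end RPL35, a neighbour of RPL23A at the mouth, went from 621 and 660.4 to 3292 and 3315 CPM, a 5.16-fold rise (adjusted p = 8.982e-13). RPL39, a small protein inside the tunnel, was at 1118 and 1263 CPM in input and at 4194 and 4304 CPM in RIP, a 3.57-fold rise (adjusted p = 6.798e-12). RPL38, RPL31, RPL26, RPL17 and RPL22 rose 4.25-, 3.23-, 2.73-, 2.29- and 2.24-fold. Their effective lengths were 0.0602, 0.116, 0.142, 0.1998 and 0.702. With offsets RPL38, RPL31, RPL26 and RPL17 turned to -0.10, -0.096, -0.21 and -0.25, the first 2 of them not called, and RPL22 was at 0.76. RPL4 (0.462), RPL23A (0.286) and RPL19 (0.198) were at -1.04, -0.90 and -0.82, RPL39 (0.0744) was at -0.22, and RPL35 (0.0964) was at 0.46.

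Among the proteins at the interface between the subunits, RPL41, a very short basic peptide, was at 1473 and 1602 CPM in input and at 7529 and 6956 CPM in RIP (4.71-fold, adjusted p = 1.439e-12). RPL30, RPL24 and RPL23 rose 3.37-, 2.85- and 2.30-fold. All 4 were above input in both RIP libraries, as were 43.7% of all tested genes. With offsets RPL41 (effective length 0.100258) was at 0.36, RPL30 (0.131) was at 0.04 and lost its call (adjusted p = 0.5046), and RPL24 (0.134) and RPL23 (0.140) turned to -0.19 and -0.47.

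The members with the largest rise came from several places in the subunit. RPL35A, which is mutated in some families with Diamond-Blackfan anaemia, went from 369.8 and 406 CPM in input to 2799 and 2749 CPM in RIP (7.15-fold, log2 fold change 2.84, SE 0.0755, adjusted p = 6.46e-13). RPL13 went from 1209 and 1374 to 9243 and 9078 CPM (7.09-fold, log2 fold change 2.83, SE 0.0788, adjusted p = 6.46e-13). RPL37A went from 811 and 912 to 4652 and 4744 CPM (5.45-fold, adjusted p = 1.064e-12). RPL18 went from 669 and 747 to 3875 and 3783 CPM (5.41-fold, adjusted p = 1.064e-12). In each of these genes the lower RIP value was several times the higher input value. Their effective lengths were 0.105, 1.61, 0.0808 and 0.255, and with offsets they were at 0.99, 3.34, 0.44 and 1.15.

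Low in the order beside RPL4, RPL23A and RPL5 were RPL6, RPL19 and RPL14. RPL6 was at 1170.4 and 1291 CPM in input and at 1824 and 1939 CPM in RIP (1.53-fold, adjusted p = 1.288e-06). RPL14 was at 757 and 769.6 CPM in input and at 1246 and 1233 CPM in RIP (1.62-fold, adjusted p = 9.248e-08). With library totals RPL6, RPL19 and RPL14 were at -0.12, -0.10 and -0.03 and were not called (adjusted p = 0.1116, 0.152 and 0.6409). That scaling moved the median of all tested genes to -0.76. Under it 42 members were called higher and 3 lower, against 17.0% and 65.5% of tested genes (82.6% either way), and 47 of the 48 stood above the median gene. RPL6 (effective length 0.283) and RPL14 (0.245) turned to -0.60 and -0.61 with offsets. After RPL14 the next member was RPL26L1 at 2.19-fold.

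Most of the remaining proteins coat the body of the subunit and had no role in the grouping above. They were higher in 21 of 21 cases, against 38.0% of all tested genes, from 0.61 for RPL6 to 2.84 for RPL35A on the log2 scale. With offsets 16 were higher and 3 lower, against 34.7% and 35.5% of all tested genes, and the median was 0.58. RPL7A, RPL36 and RPL13A rose 4.17-, 4.62- and 4.45-fold, RPL34, RPL27 and RPL21 between 3.60- and 3.73-fold, and RPL28, RPL10A, RPL29, RPL9, RPL27A, RPL37 and RPL32 between 3.09- and 3.50-fold. RPL15 rose 2.52-fold and RPL7 2.28-fold. With offsets RPL27 (effective length 0.108) was at 0.04 and RPL21 (0.136) at 0.22, and neither was called (adjusted p = 0.4448 and 0.05236), while RPL7 (0.237) turned to -0.14. RPL7A (0.257), RPL36 (0.0878), RPL13A (0.364) and RPL34 (0.263) were at 0.78, 0.25, 1.14 and 0.58. RPL28 (0.449), RPL37 (0.510), RPL32 (0.541) and RPL15 (0.707) were between 0.94 and 0.99. RPL10A (0.193), RPL29 (0.184) and RPL9 (0.205) were between 0.24 and 0.29.

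**Figure D2:**
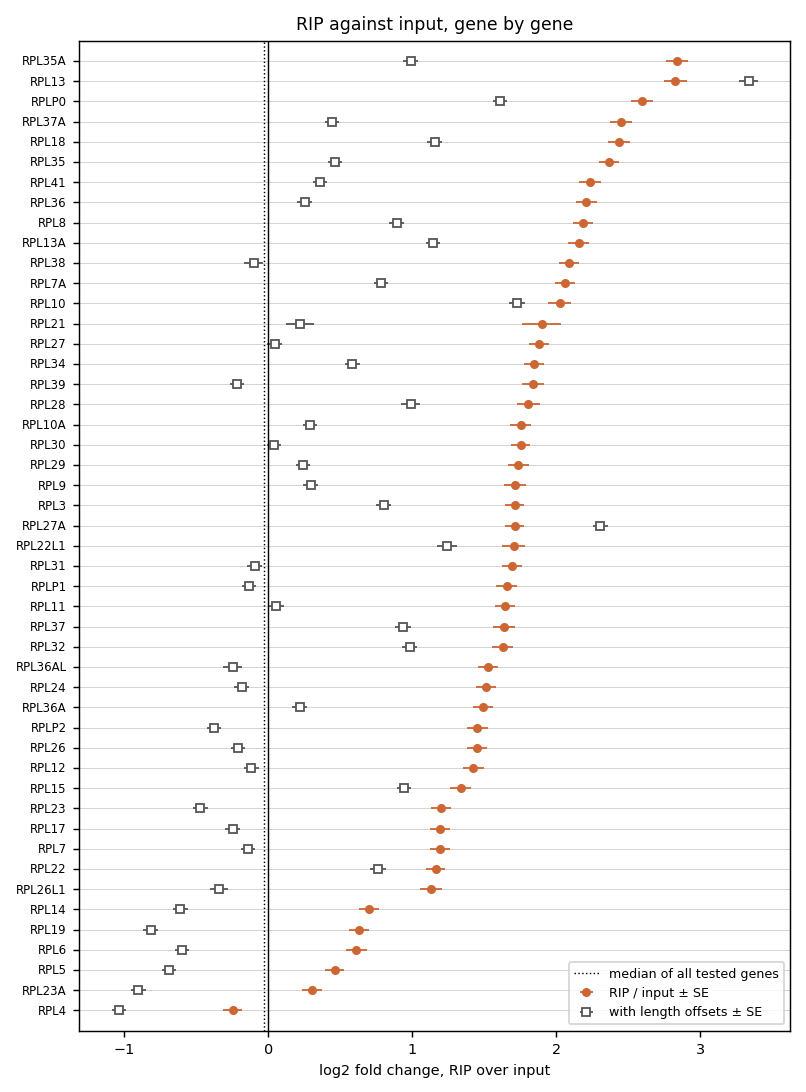
Log2 fold change of RIP over input with its SE for each of the 48 mRNAs (filled circles) and the same from the fit with length offsets (open squares). The dotted line is the median of all tested genes, -0.03. The circles run from -0.25 for RPL4 to 2.84 for RPL35A, and with offsets RPL13, RPL27A, RPL10 and RPLP0 are the farthest to the right.

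Because the members moved unequally, the make-up of the large subunit mRNA pool changed, a measure that does not depend on how the libraries are scaled. As a share of the fragments of all 48 members, RPLP0 went from 4.54% in input to 8.01% in RIP, RPL13 from 3.33% to 6.90%, and RPL41 from 3.96% to 5.45% (means of 2 libraries). RPL4 dropped from 4.55% to 1.12%, RPL5 from 3.28% to 1.32%, RPL6 from 3.17% to 1.42% and RPL23A from 1.95% to 0.703%. The 5 members with the most RIP fragments took 19.1% and 19.7% of the pool in input and 29.8% and 29.2% in RIP. They were picked by their RIP fragments, which favours a higher share in RIP. Per length, RPL4 lay below RPLP0 in input, at 1290 and 1340 against 1523 and 1712 FPKM. In RIP the gap was wider, at 1125 and 1120 against 9895 and 9864 FPKM.

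**Figure D3:**
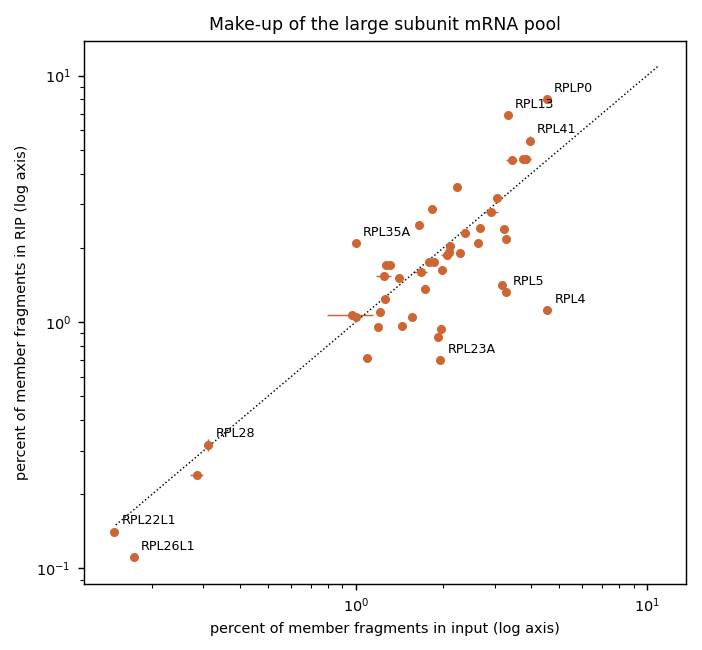
Share of each mRNA in the summed fragments of the 48 members, input on the x axis and RIP on the y axis (percent, both log axes; points are means of 2 libraries and bars reach to each library). Points on the dotted line take the same share in both. RPL35A, RPL13 and RPLP0 lie above it and RPL4, RPL5 and RPL23A below.

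Levels of different genes are compared per length only, in FPKM. In input RPL39 (5118 and 5893 FPKM) and RPL41 (5008 and 5549.6 FPKM) were highest and overlapped, followed by RPL37A (3423 and 3923), RPL38 (2815 and 2742) and RPL26 (2391 and 2566). In RIP the order was RPL41 (26183 and 24139 FPKM), then RPL37A (20082 and 20437) and RPL39 (19643 and 20115), which overlapped, then RPL35 (11908 and 11965) and RPL38 (11802 and 11683). RPL35 and RPL38 were close but did not overlap. Of the 10 highest members of each group 6 were shared. RPL35A moved from rank 27 to rank 7 and RPL4 from 24 to 41. The lowest in both groups was RPL22L1, at 28.1 and 32.3 FPKM in input and 95.8 and 102.9 FPKM in RIP. Across the 48 members the log2 FPKM of input and RIP went together (Pearson r = 0.93, Spearman rho = 0.88). The points share libraries and gene models.

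Of the members 46 had an effective length below that of the median tested gene, with a median of 0.203, from 0.0602 for RPL38 to 1.74 for RPL27A and 1.61 for RPL13. Over all 14555 tested genes Spearman's rho between fold change and length was -0.60. Within the 48 members the relation was weak (rho = -0.24, r = -0.13), and so was that with the input level in CPM (rho = -0.0049). Picked for like fold changes at unlike lengths, RPL38 (0.0602) and RPL10 (0.788) were at 2.09 and 2.02 on the log2 scale. RPL23 (0.140) and RPL22 (0.702), picked in the same way, were at 1.199 and 1.164. With offsets RPL38 and RPL10 were at -0.10 and 1.73, and RPL23 and RPL22 at -0.47 and 0.76. Of the low members RPL4 was at 0.462, RPL5 at 0.309, RPL23A at 0.286, RPL6 at 0.283 and RPL14 at 0.245. These lie above the members' median length, and RPL19 (0.198) lies just below it.

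**Figure D4:**
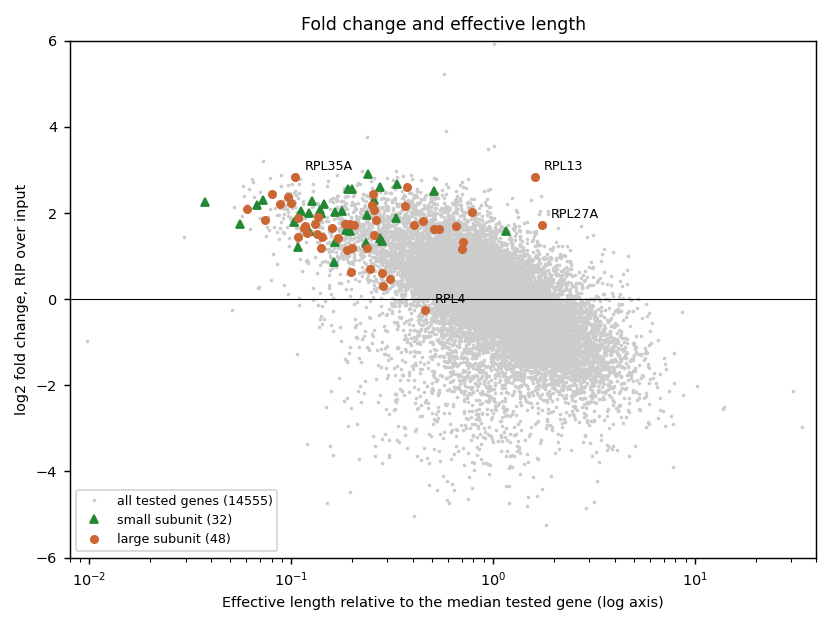
Log2 fold change of RIP over input against effective length relative to the median tested gene (log axis) for all 14555 tested genes (grey), 32 small subunit mRNAs (green) and the 48 large subunit mRNAs (orange). 21 genes lie outside the y range. Most members sit on the upper left side of the cloud, with RPL4 below its neighbours and RPL13 and RPL27A far to the right.

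With length offsets, which take out the trend of all genes, 25 members were higher, 17 lower and 6 not called, against 34.7% higher and 35.5% lower among all tested genes (70.3% either way). The median of the members was then 0.23, against -0.03. The shares of members, 25 and 17 of 48, lie nearer to the background than before. RPLP0 (effective length 0.375) stayed high at 1.61 (adjusted p = 1.246e-14), as did RPL10 (0.788) at 1.73, RPL18 (0.255) at 1.15, RPL13A (0.364) at 1.14 and RPL35A (0.105) at 0.99. RPL13 and RPL27A were at 3.34 and 2.31, values that rest on effective lengths far above those of the other members and are uncertain. RPL4, RPL23A and RPL19 were lowest at -1.04, -0.90 and -0.82 (adjusted p = 4.427e-12, 6.834e-11 and 1.77e-10). The 6 members not called with offsets were RPL11, RPL21, RPL27, RPL30, RPL31 and RPL38.

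Of the start windows above, the 34 members with a run of at least 8 had a median log2 fold change of 1.74 (range -0.25 to 2.84) and a median effective length of 0.195. The 7 members without one had a median of 1.42 (range 0.61 to 2.21) and a median length of 0.20. The second range lay within the first, and the difference was not tested.

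RPL22, RPL26 and RPL36A each have a paralog among the members, and a ratio within a library does not depend on scaling. RPL22L1, which can take the place of RPL22, was at 54.0 and 60.9 CPM in input and at 180.1 and 194 CPM in RIP (3.26-fold, adjusted p = 2.165e-11). RPL22 was at 421 and 424 CPM in input and at 949 and 945 CPM in RIP (2.24-fold, adjusted p = 2.329e-10). RPL22L1 thus made up 11.4% and 12.6% of the pair's fragments in input and 16.0% and 17.0% in RIP, a shift of 0.54 in the log2 ratio with no overlap. RPL26L1 was at 63.4 and 71.1 CPM in input and at 145 and 149.6 CPM in RIP (2.19-fold, adjusted p = 1.419e-09). RPL26 was at 995 and 1048 CPM in input and at 2806 and 2778 CPM in RIP (2.73-fold, adjusted p = 2.614e-11). Here the share of the paralog went the other way, from 5.99% and 6.35% to 4.91% and 5.11%, a shift of -0.32. RPL36AL was at 112 and 109 CPM in input and at 306 and 329 CPM in RIP (2.88-fold, adjusted p = 2.216e-11). RPL36A was at 749 and 789 CPM in input and at 2131 and 2202 CPM in RIP (2.82-fold, adjusted p = 2.132e-11). The groups overlapped for this pair, with RPL36AL at 12.97% and 12.09% in input and 12.54% and 12.9955% in RIP. With 2 against 2 libraries the exact two-sided permutation test gave p = 0.333 for the first 2 pairs, its smallest value, and 0.667 for the third. The effective lengths within these pairs were 0.702 for RPL22 and 0.656 for RPL22L1, 0.142 for RPL26 and 0.190 for RPL26L1, and 0.257 for RPL36A and 0.119 for RPL36AL. With offsets RPL22L1 and RPL22 were at 1.24 and 0.76, RPL26L1 and RPL26 turned to -0.34 and -0.21, and RPL36A was at 0.22 while RPL36AL turned to -0.25.

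**Figure D5:**
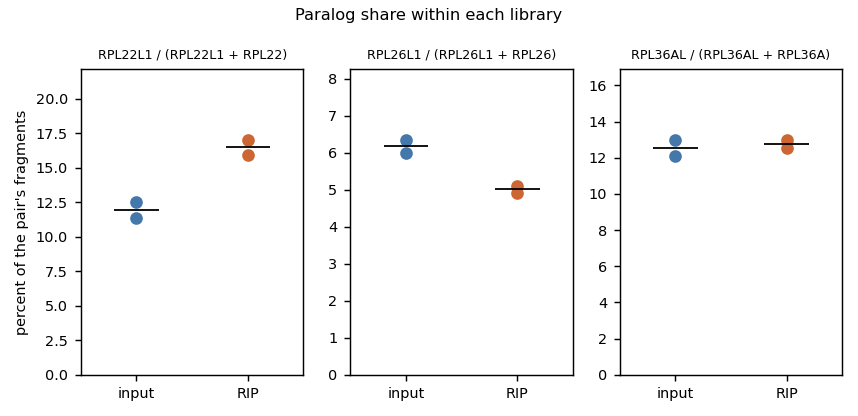
Share of the paralog in the fragments of its pair (percent, y axes from 0) in each input (blue) and RIP (orange) library; lines are group means. RPL22L1 takes a larger share in RIP, RPL26L1 a smaller one, and RPL36AL values overlap.

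Ribosomal protein genes have many near-identical copies, and 4 members had fragment estimates that were not whole numbers: RPL13A, RPL17, RPL21 and RPL36A. Each shares sequence with another gene of the table, so how fragments were split between them is uncertain. RPL21 was at 297 and 461 CPM in input, the widest gap between libraries of a group among all members, and at 1409.96 and 1416 CPM in RIP. Its copy RPL21P28 held 51.7% and 29.8% of the fragments of the pair in input and 19.9% and 23.1% in RIP. With both loci summed the input libraries were nearly equal, at 14468 and 14522 fragments, and the RIP libraries had 35083 and 37160. The summed loci rose 2.83-fold (SE of the log2 value 0.0701, adjusted p = 1.813e-11), against 3.73-fold for RPL21 alone. RPL13AP5, a copy of RPL13A, held 64.3% and 65.6% of its pair's fragments in input and 68.4% and 68.6% in RIP, more than RPL13A itself. The sum of RPL13A and RPL13AP5 was at 2.31 (4.96-fold), against 2.16 for RPL13A alone. For RPL17 and RPL36A, summed with the read-through genes that overlap them, the values were 1.18 and 1.45, against 1.19 and 1.49.

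Small nucleolar RNAs, which guide the modification of ribosomal RNA, are encoded in introns of many of these genes. Among 18 members known as hosts the median log2 value was 1.67, and 17 rose while RPL4 fell. The 30 others were all higher, with a median of 1.71, against 38.0% of all tested genes higher and 39.7% lower. With length offsets 8 hosts were higher and 8 lower (median 0.13), and 17 and 9 of the others (median 0.25). Of all tested genes 34.7% were then higher and 35.5% lower.

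Outside the member list, the retrocopy RPL39L rose 5.24-fold, from 11.4 and 12.9 CPM in input to 63.6 and 63.8 CPM in RIP (adjusted p = 4.045e-12). RPL3L had at most 6 fragments in a library and RPL10L had none, and neither was tested. Of 32 small subunit mRNAs all were higher, against 38.0% of tested genes, with a median of 2.01, from 0.87 for RPS24 to 2.90 for RPS19. With length offsets 23 were higher and 6 lower (median 0.29), against 34.7% and 35.5%. Small subunit mRNAs went from 3.58% and 3.76% of all fragments to 9.24% and 9.19%, a ratio of 2.51. Whether the subunits differ was not tested. Of 40 factors that assemble the large subunit 30 rose and 8 fell, against 38.0% and 39.7% of all tested genes. Their median effective length was 0.799, against 0.203 for the members. The median log2 value was 0.58, and the values ran from -1.95 for MDN1, a giant ATPase, to 1.60 for NLE1, which works with it. With library totals 10 of them were higher and 20 lower (median -0.15), against 17.0% and 65.5% of tested genes. With length offsets 19 were higher and 10 lower (median 0.12), against 34.7% and 35.5%. The difference from the members was not tested.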

How the data were processed

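Ribosomal RNA-depleted, strand-specific libraries of total input RNA (2) and of RNA recovered with Flag-SIRT7 (2) were sequenced, per the labels' protocols. The submitters' processing notes name hg19 as the build, and as tools TopHat2 2.0.13, Bowtie2 2.2.6, cutadapt 1.5 and Cuffdiff 2.2.1. For the annotation, the strand setting and multi-mapped reads, nothing is given in the sources used here. Each gene's fragment number was deposited as an expected count, an estimate that was whole in 98.1% of values. The scaled signal deposited beside it divides it by 1 factor per library (0.93 to 1.1232). The FPKM deposited by the authors relates that signal to transcript length and depth.

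After rounding, the counts went into edgeR 4.0.16 under R 4.3.3 (quasi-likelihood test; TMM factors 1.298, 1.278, 0.7768 and 0.776, in the order input 1, input 2, RIP 1, RIP 2; filterByExpr with a minimum count of 10; glmQLFit, then glmQLFTest, on group alone; Benjamini-Hochberg adjustment over 14555 genes, threshold 0.05), a procedure tested on simulated data. The simulation changed few genes, while 77.7% were called here, so it does not cover a shift this broad. SEs are log2 fold changes divided by the square root of F. Effective length is the scaled signal over FPKM, relative to the median tested gene. For length offsets, each library's log2 CPM deviation was fitted on log2 length (loess, span 0.3). Alternatives were library totals, RLE factors, DESeq2 1.42.0, other filters, limma 3.58.1 on log2(FPKM + 1) and log2(FPKM + 0.1), scaling without the 10 most abundant genes, a replicate block, leaving out each library, and summed copies. Without molecular identifiers, depth limits only the counting error. The table numbers libraries from 0, and 0 was taken as replicate 1. Members and lists were chosen with earlier results of these data known. All 48 members may be named by the rule. Those given in full are the stalk, 5S and peptidyl transferase centre genes, the paralogs, RPL39 and RPL41, the extremes, the most abundant and any not called higher. From the other lists the rule names the highest and lowest tested gene. Some results are not reported here.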

Additional observations from a re-analysis of the deposited data

How the results depend on the processing

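Of 48 members, all kept direction and call under RLE factors, DESeq2, no filter, a mean of at least 50 fragments, scaling without the 10 most abundant genes, the replicate block, and without either input library. RPL4 lost its call under limma on log2(FPKM + 1) (-0.23, adjusted p = 0.05158) and log2(FPKM + 0.1) (-0.23, 0.0571), leaving 0 members lower, and without either RIP library (0 to 1 lower over the fits that left out a library, 46 to 47 higher). Same-numbered libraries hardly deviated together (correlation 0.0409). With 2 libraries a group, this cannot show whether they were prepared as pairs. The replicate block gave 47 members higher and 1 lower, and 5580 and 5862 genes.

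With library totals RPL5, RPL6, RPL14, RPL19 and RPL23A turned to -0.27, -0.12, -0.031, -0.10 and -0.43, 3 members were lower and the median was 0.98. Over all genes 2481 were higher and 9539 lower (median -0.76), against 5531 and 5783 (5142 to 5525 higher without a library, median -0.045 to -0.020). That median was -0.013 with RLE factors and with DESeq2, -0.092 without a filter, and -0.00044 and -0.0013 under limma. The small subunit median was 1.28, and the assembly list had 10 higher, 20 lower and a median of -0.15.

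With length offsets 25 members were higher and 17 lower (median 0.23). Turned were RPL5 (-0.69), RPL6 (-0.60), RPL7 (-0.14), RPL12 (-0.12), RPL14 (-0.61), RPL17 (-0.25), RPL19 (-0.82), RPL23 (-0.47), RPL23A (-0.90), RPL24 (-0.19), RPL26 (-0.21), RPL26L1 (-0.34), RPL31 (-0.096), RPL36AL (-0.25), RPL38 (-0.10), RPL39 (-0.22), RPLP1 (-0.14) and RPLP2 (-0.38). RPL11, RPL21, RPL27 and RPL30 lost their call. The small subunit had 6 lower (median 0.29), and the assembly list 19 higher (median 0.12). The offsets take out the trend of all genes with length, and what these shifts come from was not tested. As a share of summed FPKM in place of fragments, the members' ratio of RIP to input was 1.297. Summing copies, an alternative chosen after seeing the data, changed no call. With 2 libraries a group, the spread is known poorly, whatever the depth.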
